A study of Arabidopsis thaliana with 12 samples.

Results

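The 6 genes described here encode proteins of the plastid ribosome, 4 of its large subunit and 2 of its small subunit. They were chosen by locus as AT4G01310, AT3G54210, AT1G29070, AT5G65220, AT1G64510 and AT3G13120, on condition that a probe's platform annotation names that gene and no other. This gave 6 genes of the 691 that have a probe naming them alone, on an array of 3439 probes. The light group held 6 samples of plants given 30 min of light at the end of a 12 h dark period, and the dark group 6 samples of plants dark-adapted for 12 h. All plants were wild type of the ecotype Landsberg, and total RNA was hybridized. The comparison asks how transcript levels differ after this short exposure. A control kept dark until the later harvest is not among the groups, so the effects of light and of time passing cannot be told apart. The labels do not say how many plants stand behind a sample, nor which tissue was taken, and a transcript that is lower per cell cannot be told apart from one carried by fewer cells.

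Plastids translate their own genome on ribosomes of bacterial type, with a large and a small subunit. The ribosomal RNAs and part of the ribosomal proteins are encoded in the plastid, and the other proteins are encoded in the nucleus, made in the cytosol and imported. In leaves these ribosomes make core subunits of the photosystems and the large subunit of Rubisco. The names L5, L17, L34, L29, S6 and S10 are used below for AT4G01310, AT3G54210, AT1G29070, AT5G65220, AT1G64510 and AT3G13120. They follow the bacterial counterparts and come from general knowledge of these loci, since the gene table used gives no descriptive name for them.

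The values are hybridization intensities on a linear scale of unstated unit. Column medians lay between 0.666 and 0.687 in light samples and between 0.443 and 0.491 in dark samples, and column sums between 3532 and 3666 in light samples and between 3247 and 3321 in dark samples. The groups thus differed more in the medians than in the sums. Differences are given on log2 of quantile-normalized intensities, in which only the rank of a probe within its array counts, with the deposited intensities beside them. By limma, with Benjamini-Hochberg adjustment over all probes and an adjusted p under 0.05, 52.5% of the 3439 probes were called, 23.6% higher and 29% lower in light. Of 5 marker genes of green tissue, 1 had a probe naming it alone. This was LHB1B2, an antenna protein of photosystem II, at 5.83 ± 0.597 in light and 17.5 ± 2.98 in the dark (SD, n = 6 each), never below percentile 98.2 of an array.

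Of the 6 plastid ribosomal protein genes, 1 was called higher in light and 3 were called lower, while L34 was not called and L29 had no measurable signal. The gene called higher belongs to the large subunit, and those called lower were L17 of the large subunit and both small subunit genes. The share of genes called is to be read against the 52.5% of all probes that were called, so it does not set these genes apart from the array. The 5 genes other than L29 had a median log2 difference of -0.86. The 603 one-gene probes likewise above a floor for low values in at least 10 samples, these 5 included, had a median of 0.01. As deposited the medians were -0.34 and 0.48. The 5 genes differed in direction and were chosen with results of these data known, so no shift of the group is read from these medians.

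**Figure D1:**
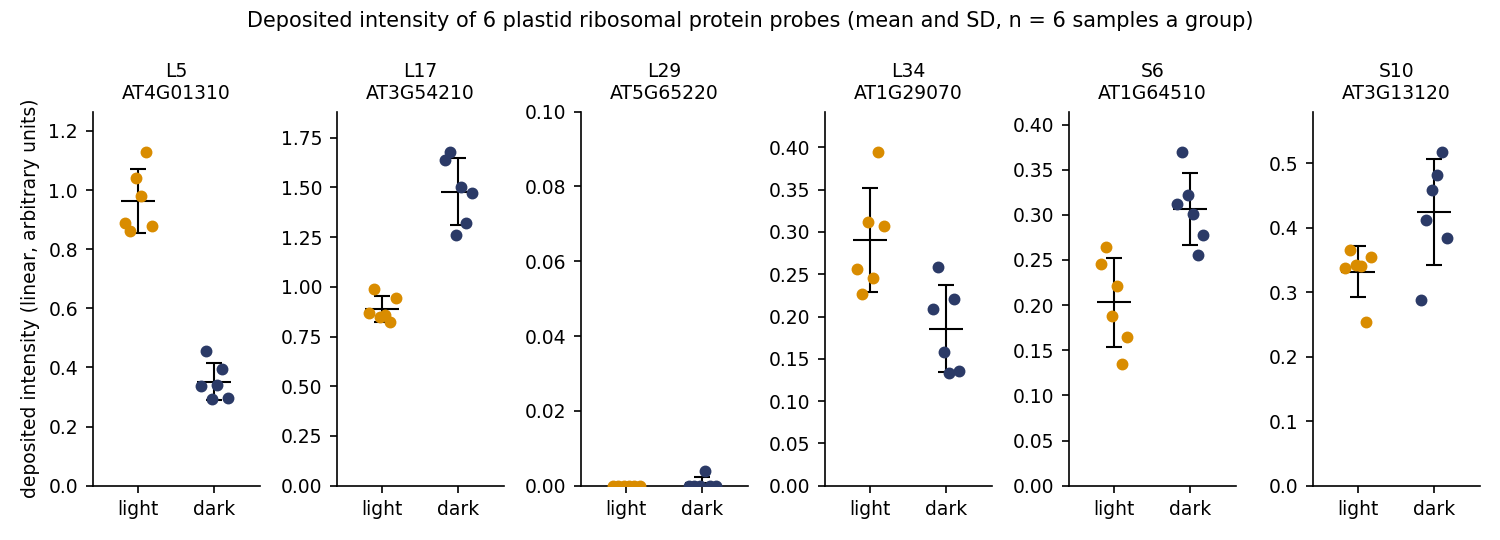
Deposited intensity (linear, arbitrary units, each panel with its own axis from 0) of the 6 plastid ribosomal protein probes in the light and dark samples; points are samples, bars the mean and SD of 6. L5 lies higher in every light sample than in any dark one, L17 lower, L34, S6 and S10 overlap on this scale, and L29 is at or near 0 throughout.

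L5 contacts the 5S ribosomal RNA in bacteria, within the central protuberance of the large subunit. Its deposited intensity ran from 0.862 to 1.13 with a median of 0.933 in light samples, against 0.292 to 0.455 with a median of 0.338 in dark samples. The lowest light value was thus above the highest dark value. The ratio of the mean deposited intensities was 2.73. After normalization L5 was 1.97-fold higher in light, with a difference of 0.98 ± 0.13 on the log2 scale (SE, limma adjusted p = 4.64e-05). All 6 replicate numbers gave a positive difference, with the lowest at 0.38 for number 2 and the highest at 1.46 for number 3. Number 2 had the highest of the dark values, 0.455, and the lowest of the light values, 0.862. In rank terms L5 stood at percentile 70.3 ± 5.63 of its array in light and at percentile 35.3 ± 9.24 in the dark (SD, n = 6 each).

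L17, a protein of the large subunit near the exit of the peptide tunnel in bacteria, varied least within a group among the 5 genes with a signal above the floor, the value to which low intensities were raised. Its deposited intensity lay between 0.821 and 0.988 with a median of 0.863 in light samples, and between 1.26 and 1.68 with a median of 1.49 in dark samples. The groups did not overlap, and here all light samples were the lower ones. The normalized intensity was 2.03-fold lower in light, with a difference of -1.02 ± 0.09 on the log2 scale (SE, limma adjusted p = 1.28e-06). By replicate number the difference ranged only from -1.23 to -0.88. L17 stood at percentile 66.1 ± 4.26 of its array in light and at percentile 90.4 ± 1.97 in the dark (SD, n = 6 each). Such percentiles place 1 probe among the rest and do not order transcripts by abundance, because binding differs between probes. The residual SD of L17 was 0.142 on the log2 scale, which is lower than that of most probes of like level (percentile 13.0 among the 500 nearest in mean level).

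L34, a short protein bound to the RNA of the large subunit, gave a dim signal. Its deposited intensity ranged from 0.227 to 0.395 with a median of 0.281 in light samples and from 0.133 to 0.258 with a median of 0.183 in dark samples, so the groups overlapped. The normalized difference was 0.23 ± 0.22 (log2 ± SE, limma adjusted p = 0.405), with a 95% confidence interval from -0.25 to 0.70. This interval still holds a fall of 0.25 and a rise of 0.70 on the log2 scale. As deposited, the difference was 0.65 and L34 was called higher (limma adjusted p = 0.00739), on a scale where the median of all probes was 0.44. The replicate numbers did not point the same way. Numbers 1 and 2 gave -0.22 and -0.66, whereas numbers 3 to 6 gave 0.67, 0.55, 0.29 and 0.72. In the dark, samples 1, 2 and 5 had deposited intensities of 0.209, 0.258 and 0.221, and samples 3, 4 and 6 had 0.158, 0.133 and 0.135. Its residual SD was 0.404 on the log2 scale, the highest of the 5 measured genes. The floor was set per column at the 5th percentile of its values above 0, and 1 dark value of L34 lay under it.

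L29 lies beside the tunnel exit of the bacterial large subunit. It was listed at 0 in all 6 light samples and in 5 of 6 dark samples, and at 0.00402 in dark sample 4. All 12 values were below the floor, so L29 has no measured difference. A value of 0 here may be a failed reading as well as a low transcript level, and without a detection measure these cannot be told apart.

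S6, which lies on the platform of the bacterial small subunit, had deposited intensities from 0.135 to 0.264 with a median of 0.205 in light samples, against 0.255 to 0.370 with a median of 0.307 in dark samples. The groups overlapped by a single pair of values on this scale, light sample 2 at 0.264 and dark sample 5 at 0.255. These belong to different replicate numbers, and within each number the light value was the lower one. After normalization the groups no longer overlapped, and S6 was 2.05-fold lower in light, with a difference of -1.04 ± 0.13 on the log2 scale (SE, limma adjusted p = 2.78e-05). By number the difference ranged from -1.20 to -0.85. S6 stood at percentile 11.2 ± 2.87 in light and at percentile 29.2 ± 5.45 in the dark (SD, n = 6 each). Light sample 5 lay under the floor and was raised to it, so the fall is partly set by that floor. With the floor at the 1st percentile the log2 difference of S6 was -1.09, and with the floor at the 10th percentile it was -0.76, called both times. On deposited values with consecutive numbers averaged, S6 was no longer called, at -0.57 (limma adjusted p = 0.0524).

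S10, a protein of the head of the bacterial small subunit that also links ribosome and RNA polymerase in bacteria, had the smallest difference among the 4 genes called. Its deposited intensity ranged from 0.253 to 0.365 with a median of 0.341 in light samples and from 0.288 to 0.518 with a median of 0.436 in dark samples. The groups overlapped, since dark sample 1 at 0.288 lay below 5 of the light values. After normalization all light samples were below all dark samples, and S10 was 1.82-fold lower in light, with a difference of -0.86 ± 0.13 on the log2 scale (SE, limma adjusted p = 0.000139). By number the difference went from -1.55 for number 5 to -0.31 for number 1. As deposited the difference was -0.34 and S10 was not called (limma adjusted p = 0.0552), and number 1 then had a positive difference of 0.23. S10 stood at percentile 19.6 ± 3.07 in light and at percentile 44.1 ± 9.39 in the dark (SD, n = 6 each). The call of S10 thus holds relative to the other probes of an array and not for the deposited intensity itself.

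**Figure D2:**
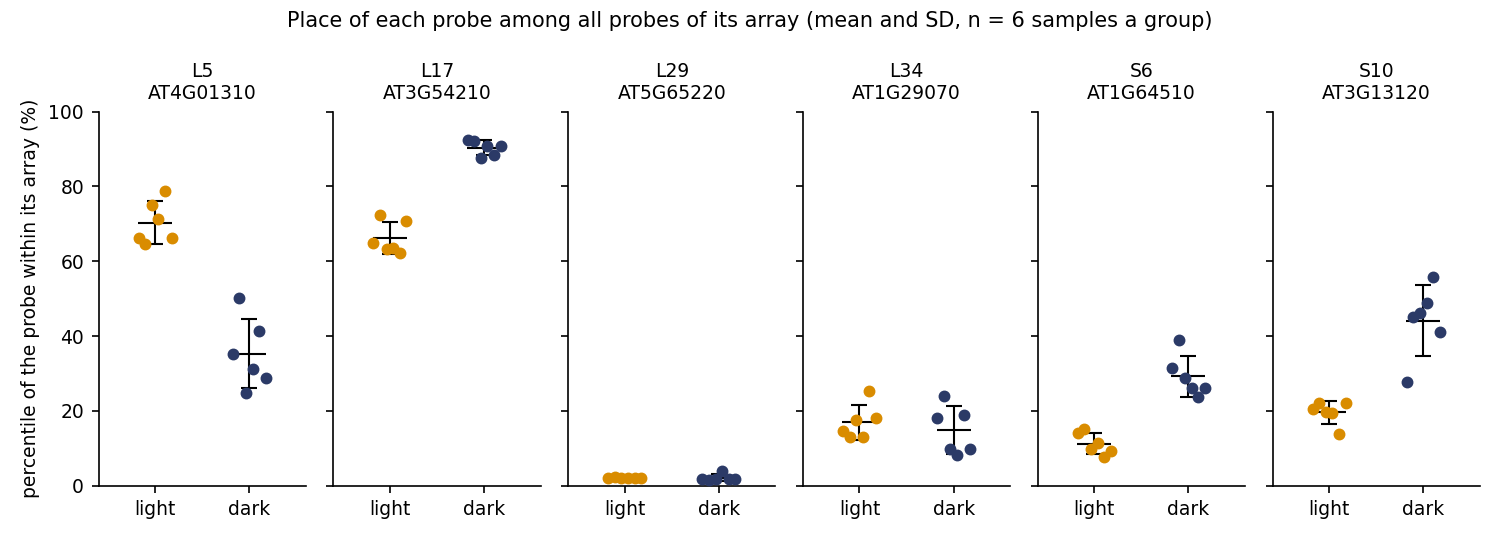
Percentile of each plastid ribosomal protein probe among the 3439 probes of its own array, in light and dark samples; points are samples, bars the mean and SD of 6. L5 stood at 70.3 in light and 35.3 in the dark, L17 at 66.1 and 90.4, S6 at 11.2 and 29.2, S10 at 19.6 and 44.1, while L34 at 16.9 and 14.8 overlapped.

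Light and dark did not overlap in the normalized values of L5, L17, S6 and S10. Those of L29 did not overlap either, but all were at the floor of their column, so this is no measured difference. Probes at the floor are also counted in the shares of the array that follow. Over the array 38.6% of probes did not overlap on that scale, 18.9% with light higher and 19.7% with light lower. As deposited, the groups did not overlap for L5 and L17, against 38.8% of all probes. The sizes of the differences of L5, L17, S6 and S10 lay at percentiles 81.3, 83.0, 83.5 and 76.3 of the absolute log2 differences of all probes.

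Samples of consecutive number (1 and 2, 3 and 4, 5 and 6) resembled each other within a group over the whole array, so differences were also read with each pair as 1 unit. L5 gave 0.61, 1.29 and 1.05 for the pairs in that order, and L17 gave -1.12, -1.0 and -0.94. S6 gave -0.92, -1.05 and -1.14, and S10 gave -0.53, -0.96 and -1.10. L34 gave -0.44, 0.61 and 0.50. Of these 5 genes, all but L34 kept their sign in the 3 pairs. With the pairs averaged, 3 against 3, the calls were again those of L5 (limma adjusted p = 0.00542), L17 (0.00225), S6 (0.00809) and S10 (0.00616), beside 34.9% of all probes. Numbers 1 and 2 gave the smallest size for L5, S6 and S10 but the largest for L17.

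**Figure D3:**
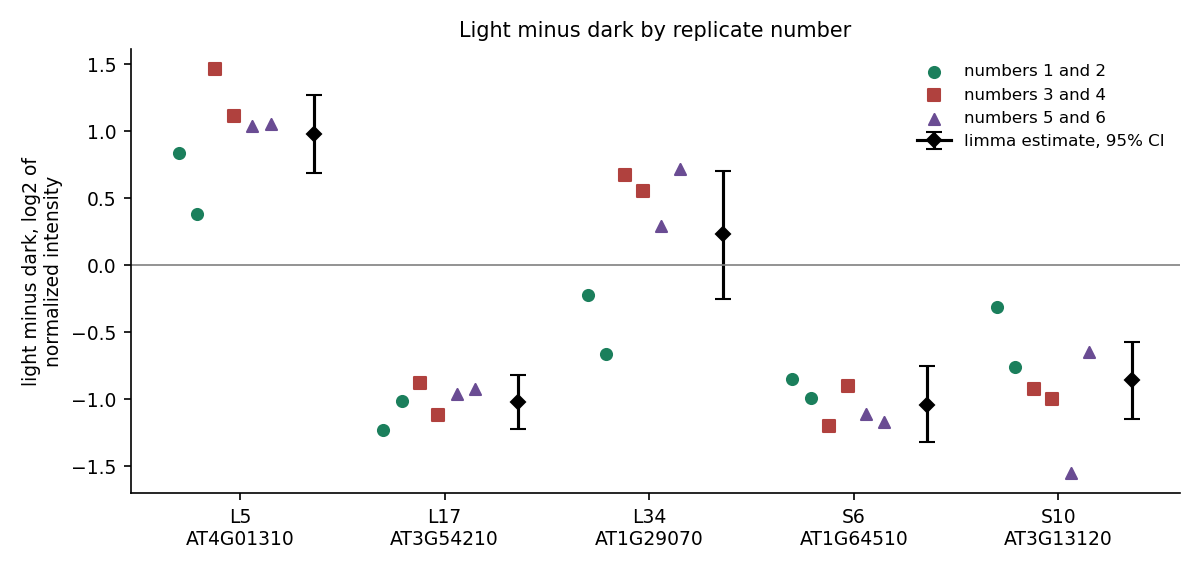
Light minus dark of normalized log2 intensity for each replicate number (points, coloured and shaped by pair of consecutive numbers), with the limma estimate and its 95% confidence interval (diamonds), for the 5 plastid ribosomal protein genes with a measured difference. The points of L5 are all above 0, those of L17, S6 and S10 all below 0, and those of L34 lie on both sides with numbers 1 and 2 below.

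The directions of L5, L17 and S6 held under all 4 scalings tried, each called every time. For L5 the log2 difference was 0.98 after quantile normalization, 0.93 after cyclic loess, 0.92 with each array centred on its median and 1.46 as deposited. For L17 it was -1.02, -1.01, -1.27 and -0.73 in the same order, and for S6 -1.04, -0.96, -1.11 and -0.57. S10 had -0.86, -0.80, -0.88 and -0.34, called in all but the last. L34 had 0.23, 0.27, 0.11 and 0.65, called only in the last. The balance over the whole array also moved with the scaling, from 811 probes higher and 996 lower after quantile normalization to 1715 and 479 as deposited (49.9% and 13.9% of probes). With loess 24.8% were higher and 27.4% lower, and with centred arrays 19.9% and 32.5%.

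**Figure D4:**
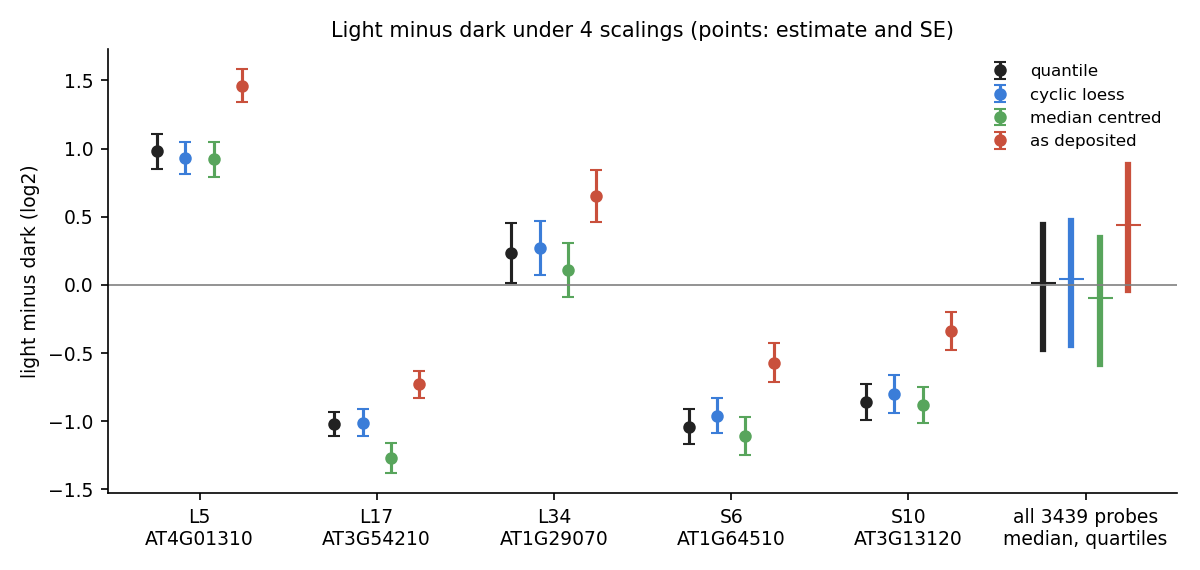
Light minus dark (log2, estimate and SE) of 5 plastid ribosomal protein genes under 4 scalings, with the median and quartiles of all 3439 probes at the right. As deposited, every gene lies higher, as does the median of all probes at 0.44; L5 stays above 0 and L17, S6 and S10 below 0 under each scaling.

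The ratio of 2 genes within a sample does not depend on a scaling factor of its array. The ratio of L5 to L17 in deposited intensity was 1.02, 0.872, 1.22, 1.14, 1.37 and 0.928 in light samples 1 to 6. In dark samples 1 to 6 it was 0.206, 0.271, 0.231, 0.226, 0.297 and 0.202. Every light sample had the higher ratio, by 4.57-fold on the mean of the logarithms, so these large subunit genes changed unequally. As deposited, L5 was higher and L17 lower in every light sample, so their ratio had to separate and is no further evidence. Each ratio mixes the brightness of 2 probes, and only its change between groups can be read. Of the 10 ratios among the 5 measured genes, 5 did not overlap between light and dark, and these were the 4 ratios with L5 and that of L17 to L34. Over all 179101 pairs of the 599 one-gene probes above the floor in at least 10 samples and never at 0, 34.1% of ratios did not overlap. The 10 ratios share 5 genes and are not independent, so nothing is read from their share. The ratio of L17 to S6 overlapped, with log2 values of 1.82 to 2.60 in light and 1.97 to 2.41 in the dark and a difference of -0.11. The ratio of S6 to S10 also overlapped, at a difference of -0.28, as did that of L17 to S10 at -0.39. The other overlapping ratios differed more, that of L34 to S6 by 1.28 and that of L34 to S10 by 1.0 on the log2 scale, with SDs of 0.65 and 0.46 in light and 0.38 and 0.54 in the dark. Such overlap does not show that 2 genes changed equally. By subunit, the large one thus held L5 called higher, L17 called lower and L34 not called, and the small one held 2 genes called lower. No test was made over the groups of genes, since these genes were chosen with results of these data known.

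Whether the genes vary together apart from the light difference was read from deviations of each sample from its group mean, over 12 samples. L5 and L34 deviated together, with Pearson r = 0.84 and Spearman rho = 0.79. Pearson r was 0.74 within light and 0.87 within the dark, and 0.70 without the 2 samples in which L5 deviated most. Among the 181503 pairs of the 603 one-gene probes above the floor in at least 10 samples, 98.9% had an r at or below that of L5 and L34. This pair had the highest r of the 10 pairs of genes, so its rank is that of a picked pair. Over the 10 pairs the median r was 0 and 5 were positive, where 50.5% of all such pairs were positive. L17 and S6 had r = 0.49, rho = 0.55 and r = 0.44 without the 2 samples farthest in L17, below the 95th percentile of 0.71 of all such pairs. By group, L17 and S6 had r = 0.40 in light and 0.65 in the dark. The other 8 pairs of genes had r between -0.30 and 0.14 over both groups, where the median of all pairs was 0.01. These values near 0 joined unlike values of the groups, each over 6 samples. L5 and L17 had r = -0.79 in light and 0.47 in the dark, L5 and S6 had -0.69 and 0.50, and L34 and S6 had -0.81 and 0.53. L17 and S10 had r = 0.70 in light and -0.66 in the dark, and the small subunit genes S6 and S10 had 0.53 and -0.41. L17 and L34 had r = -0.41 in light and 0.36 in the dark. For S10 with L5 the values were -0.89 in light and 0.11 in the dark, and for S10 with L34 they were -0.76 and -0.13. In light sample 5, S10, S6 and L17 had their lowest light deviations, -0.36, -0.28 and -0.11. L5 and L34 had their highest light deviations there, 0.26 and 0.45. The values of r in light may therefore rest largely on this sample, and they were not computed without it. The difference of r between the groups was not tested. These values are descriptive and carry no p, because equal and consecutive numbers share deviations over the whole array and the 12 samples are not independent.

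**Figure D5:**
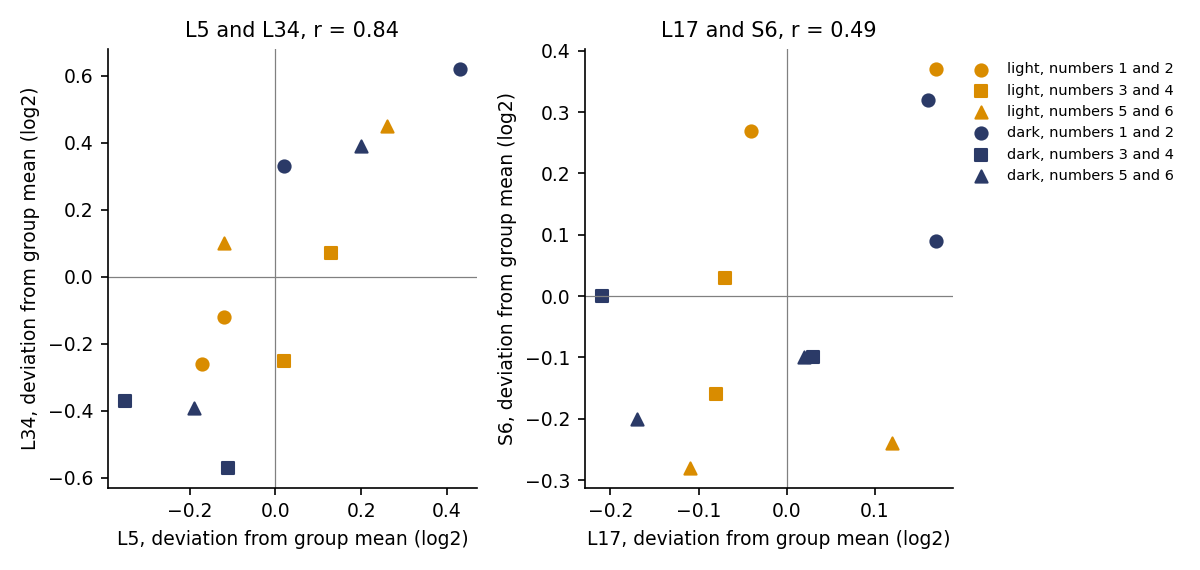
Deviation of each sample from its group mean (log2 of normalized intensity), L34 against L5 and S6 against L17; orange points are light and blue points dark samples, with the shape giving the pair of consecutive numbers. Samples with a high L5 also had a high L34 (r = 0.84), whereas L17 and S6 scatter more widely (r = 0.49).

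The probes with the most similar pattern over the 12 samples were sought among the other 602 one-gene probes above the floor, by Pearson r of normalized log2 values, which includes the difference between groups. For L5 these were FBL17 (AT3G54650), an F-box protein, with r = 0.968, and AT1G30700 with r = 0.953. FBL17 had a deposited intensity of 0.866 ± 0.134 in light and 0.144 ± 0.0465 in the dark (SD, n = 6 each). L17 was most like AT2G37510 (r = 0.981) and the cyanase gene CYN (r = 0.980), and S6 most like AT2G03390 (r = 0.981) and AT3G09050 (r = 0.974). S10 was most like AT4G05030 (r = 0.940) and LpxA (r = 0.916). For L34 the highest values were lower, 0.818 for AT3G52550 and 0.743 for AT4G02800. No plastid ribosomal protein gene was among the 2 nearest of another. With only 2 of 602 probes kept for each gene, such an absence was likely in any case, so nothing is read from it.

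Of 41 nuclear genes listed for plastid ribosomal proteins, the 6 described had a probe of their own, 4 of 27 for the large subunit and 2 of 14 for the small subunit. None of 12 plastid translation factors and none of 19 genes of plastid transcription had one. Among 15 genes listed for plastid ribosome assembly and RNA maturation 2 were measured, by 3 probes. AT3G12930, related to maize Iojap and to a bacterial ribosome silencing factor, had deposited intensities from 0.415 to 0.613 in light and from 0.435 to 0.765 in the dark. These ranges overlapped, but after normalization the groups did not, and AT3G12930 was lower in light at -0.75 ± 0.13 (log2 ± SE, limma adjusted p = 0.000386). As deposited it was not called, at -0.24 (limma adjusted p = 0.191). AT2G25870, which encodes a YbeY-type endoribonuclease acting on plastid ribosomal RNA, had 2 probes that disagreed. The first had 0.940 ± 0.105 in light and 0.981 ± 0.266 in the dark (SD, n = 6 each). Its log2 difference was -0.39 (limma adjusted p = 0.0422), not called with the pairs averaged (limma adjusted p = 0.198). The second had 0.904 ± 0.0598 in light and 0.342 ± 0.0502 in the dark (SD, n = 6 each). Its log2 difference was 0.92 (limma adjusted p = 2.99e-05, with pairs averaged 0.00791). No direction can be given for AT2G25870. Each of the 6 plastid ribosomal protein genes was read from 1 probe, so a disagreement of this kind could not be seen for them.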

How the data were processed

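The authors' deposited values are linear intensities in 12 columns. The labels name neither scanner nor background correction nor scaling, and the unit is not given in the sources used here. Groups and replicate numbers came from sample titles, and every column was used. Intensities were quantile-normalized, low ones were raised to a floor (per column, the 5th percentile of values above 0), and log2 was taken. The linear model of limma 3.58.1 (lmFit, eBayes; R 4.3.3) set light against dark over all 3439 probes, 6 against 6, without a block, two-sided, with Benjamini-Hochberg adjustment and a threshold of 0.05. The fits were also run on simulated data in which far fewer probes changed than were called here. That run therefore does not show how reliable the calls above are.

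The annotation named 1 gene for 692 probes, several for 870 and none for 1877. Of the 692, 690 matched the TAIR10.1 gene table. The genes described, the lists and the tests were chosen with earlier results of these data known. Beside the 6 genes, the rule named every list gene with a probe of its own, genes described as ribosomal protein or tRNA synthetase (none besides), and the 2 probes most alike in pattern.

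Deviations of equally numbered light and dark samples correlated at 0.41 to 0.65 across probes, and all 6 were closest to their own number. Samples of equal number were therefore paired for the differences by number and in the replicate block. The main fit did not use the numbers. The labels do not say what they stand for. Consecutive numbers correlated at 0.36 to 0.47 in light and 0.42 to 0.60 in the dark. Nothing says that samples came from separate plants, so p-values set a difference only against the spread between these samples, which may be technical. The main fit also treated the samples as independent. No measure of depth or background is given, and the number of samples limits precision. Alternatives covered scaling, floor, filter, blocks, averaged pairs, pairs left out and an exact permutation test.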

Additional observations from a re-analysis of the deposited data

Results flagged for a closer look

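The 6 normalized log2 values of each group were examined for L5, L17, L34, S6 and S10, 10 groups in all, and in 1 of them a single value was remote from the rest, where about 1 in 20 is expected by chance. This was light sample 5 of S10, with a value of -2.20, whereas the other light values of S10 ran from -1.84 to -1.70. The same number had the highest dark value of S10. Without numbers 5 and 6 of both groups the log2 difference of S10 was -0.74 (limma adjusted p = 0.00375).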

How the results depend on the processing

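L5 and L17 kept direction and call under all 15 alternatives run, at 0.84 to 1.46 and at -1.27 to -0.73 on the log2 scale. On values as deposited L34 became called higher at 0.65, S10 was not called at -0.34, and 2 of the genes were then called higher. On the same values 1715 probes were called higher and 479 lower. With consecutive numbers averaged 520 probes were called higher, with fewer samples. An alternative added after seeing the data joined deposited values with averaged numbers. It left 1 gene called lower, with S6 at -0.57 and S10 at -0.34 not called, and 301 probes called lower. The cause of these changes was not tested. With the replicate block no gene's call changed, L34 stayed at 0.23 (limma adjusted p = 0.328), and 966 probes were higher and 1103 lower. Leaving out each pair of numbers gave 0.84 to 1.16 for L5, -1.06 to -0.97 for L17, 0.03 to 0.55 for L34, -1.08 to -0.98 for S6 and -1.02 to -0.74 for S10. Without numbers 1 and 2, L34 stood at 0.55 and was not called (limma adjusted p = 0.0782). The filter on mean level left L34 and S6 untested. In the exact permutation test L5, L17, S6 and S10 each had p = 0.00216, unadjusted and the smallest that 924 assignments can give, and L34 p = 0.342. With no measure of background, the dim signals of L34 and S6 limit what can be read from them.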
